A study of Mus musculus with 16 samples.

Results

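The genes described here encode the telomerase subunits Tert and Dkc1, the shelterin proteins Terf1, Terf2, Pot1a, Tinf2 and Acd, and the telomere-associated factor Rif1. Every array probe that the scanner files name by one of these 8 symbols was taken, which gave 15 probes of the 41174 on the array. Terf2 had 4 probes, Dkc1, Pot1a, Rif1 and Tinf2 had 2 each, and Tert, Terf1 and Acd had 1 each. Each of the 15 rose clear of background on 1 or more of the 16 arrays and was tested, and 12 did so on all 16.

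In the study, embryonic fibroblasts of the mouse (MEFs) were reprogrammed to iPS cells, that is induced pluripotent stem cells, with human artificial chromosome vectors, which stay outside the host chromosomes and carry the factors as cDNAs under the CAG promoter. Clones 1-A3, 1-B, 1-C3 and 1-D6, the 4 iHAC1-iPS samples, carried 2 copies each of Klf4, c-Myc, Sox2 and Oct4 on the vector. Clones 2-B1, 2-C6, 2-E and 2-N, the 4 iHAC2-iPS samples, carried that construct plus a p53 knockdown cassette and 2 further Oct4 copies. The 4 iHAC-free iPS lines had lost the iHAC2 vector, and line F-B1 came from clone 2-B1, F-C5 from 2-C6, F-E4 from 2-E and F-N7 from 2-N. All of these, the MEFs and the ES cell line B6ES have a C57BL/6 background. According to the study, the ES lines and the clones were grown on feeder layers of ICR MEFs treated with mitomycin C. MicroRNA mimics were added during reprogramming with either vector. The ES line TT2 came from a C57BL/6 x CBA cross and the retroviral iPS line 20D17 from a C57BL/6 x DBA cross. Each clone or line was hybridized once, so a replicate is a separate clone or line, and MEFs and 20D17 have no replicate.

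Telomeres are the repeat-capped ends of chromosomes. Tert is the reverse transcriptase of telomerase and copies the template of the RNA Terc, while dyskerin, the product of Dkc1, holds that RNA in a stable particle. Shelterin coats the repeats: Terf1 and Terf2 (TRF1 and TRF2) bind the duplex part, Pot1a binds the single-stranded overhang, Acd (TPP1) joins Pot1a to the complex and brings in telomerase, and Tinf2 (TIN2) bridges the others. Rif1 acts in replication timing and in the repair of broken ends and is abundant in ES cells. Telomerase is active in pluripotent stem cells and low in most differentiated cells, so these genes are read in reprogramming as part of the stem cell state.

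Values are log2 levels of the processed spot signal minus the 75th percentile of the same array, so 0 is the signal of the probe at that percentile. Levels of different probes are not set against each other, because probes differ in how strongly they hybridize. Across the arrays, 54.2% to 65.8% of spots rose well above background, and no spot was saturated. The arrays lay on 4 slides and were scanned in 2 sessions, with all iHAC2-iPS and iHAC-free iPS arrays in the second session and all others in the first. A difference between the iHAC2-derived cells and ES or iHAC1-iPS cells therefore cannot be told apart from one between sessions. Of 10 listed pluripotency markers, Nanog had no probe under its symbol. The other 9 were well above background on every ES, iHAC2-iPS and iHAC-free iPS array. On the iHAC1-iPS arrays 6 to 9 of these markers were, and on the MEF array 6. Their mean level was -2.73 in 1-A3, -1.55 in 1-B, -0.35 in 1-C3 and -2.58 in 1-D6, and it lay between 1.91 and 4.11 in the ES, iHAC2-iPS and iHAC-free iPS arrays. So the iHAC1-iPS clones went against the marker profile of their label, and the part of this in the results below was not tested. Among the 9 markers are Pou5f1 (Oct4) and Sox2, which the vectors carry as cDNAs. Whether their probes read the vector copies was not tested.

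The probes that the main results turn on are 60 bases long. The Rif1 probe A_51_P439711 (mm9 chr2:51966609-51966668, plus strand), which lies 5′ of the other Rif1 probe, is given because Rif1 showed the largest and steadiest difference. The 4 Terf2 probes are given because they fell into pairs that went different ways. On the minus strand, A_52_P580017 (chr8:109600819-109600878) and A_52_P391210 (chr8:109600701-109600760) lie 5′ of A_52_P427544 (chr8:109594341-109594400) and A_51_P458086. They are called the 5′ pair and the 3′ pair by these relative positions only, and their places within the transcript were not derived. For A_51_P458086 the files give only chr8:109593302-109593311. The Dkc1 probe A_51_P469633, likewise the 5′ one of its gene, is given because it and the other Dkc1 probe disagreed in 1 line. Its position, chrX:72345852-72346341, spans 490 bases for a 60-base probe, so the match is split in the genome. Each of these sequences has at least 1 reading frame with no stop codon, and all are in lower case because no part of them is singled out.
Rif1 A_51_P439711: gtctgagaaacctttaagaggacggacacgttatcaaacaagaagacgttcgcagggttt
Terf2 A_52_P580017: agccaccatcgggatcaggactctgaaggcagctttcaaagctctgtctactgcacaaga
Terf2 A_52_P391210: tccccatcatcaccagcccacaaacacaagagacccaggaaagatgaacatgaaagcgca
Terf2 A_52_P427544: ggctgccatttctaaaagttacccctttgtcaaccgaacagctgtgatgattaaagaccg
Terf2 A_51_P458086: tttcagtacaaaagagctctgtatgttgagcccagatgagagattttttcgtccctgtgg
Dkc1 A_51_P469633: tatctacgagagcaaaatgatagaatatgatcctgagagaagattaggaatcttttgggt

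Rif1 was low in every iHAC1-iPS clone and high in every other stem cell array. With the 5′ probe its level was 0.55 in 1-A3, 0.81 in 1-B, 0.87 in 1-C3 and 0.34 in 1-D6. It was 2.55 in B6ES and 2.55 in TT2, and 1.88 in 20D17. The iHAC2-iPS clones had 2.38 in 2-B1, 2.40 in 2-C6, 2.23 in 2-E and 2.77 in 2-N. The iHAC1-iPS clones thus lay below the lowest of these arrays, with no overlap, and above the MEF array at -1.02. The iHAC-free iPS lines had 2.62 in F-B1, 2.61 in F-C5, 2.82 in F-E4 and 2.91 in F-N7, all above both ES lines. In the limma fit over all probes, iHAC1-iPS cells were 3.76-fold below ES cells (log2 difference -1.91, SE 0.19, adjusted p = 0.00011). They were 3.49-fold below iHAC2-iPS cells (-1.80, SE 0.16, adjusted p = 2.99e-05) and 4.28-fold below iHAC-free iPS cells (-2.10, SE 0.16, adjusted p = 7.33e-06). Clone 1-D6, which shared a slide with both ES lines, was -2.21 from their mean, so the difference was as large within that slide. With the slide as a block, the difference from ES cells rests on this clone alone.

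The other Rif1 probe, A_51_P305693 (chr2:51977226-51977285), gave the same direction in all 3 comparisons. Its level was 0.72 in 1-A3, 1.20 in 1-B, 1.45 in 1-C3 and 0.79 in 1-D6, and 2.81 in B6ES and 2.54 in TT2. In 2-B1, 2-C6, 2-E and 2-N it was 2.18, 1.87, 1.89 and 2.36, and it was 2.09 in F-B1, 2.10 in F-C5, 2.41 in F-E4 and 2.21 in F-N7. The iHAC1-iPS clones again lay below all of these. On this probe every iHAC-free iPS line lay below both ES lines, whereas on the 5′ probe every one lay above. Their place against the ES lines thus depended on the probe. The difference was -1.64 (SE 0.23, adjusted p = 0.00066) from ES cells, -1.03 (SE 0.18, adjusted p = 0.0016) from iHAC2-iPS cells and -1.16 (SE 0.18, adjusted p = 0.00063) from iHAC-free iPS cells. Relative to the ES lines, the 5′ probe minus this one was between 0.32 and 0.82 on the 8 arrays of the second session and between -0.46 and 0.14 on the 8 of the first, so the size of the difference from the iHAC2-derived cells depended on the probe. All 6 calls of Rif1 held under every alternative that could test the probe, with adjusted p between 8.71e-07 and 0.016. No Rif1 call was made among ES, iHAC2-iPS and iHAC-free iPS cells. For the 5′ probe, iHAC2-iPS cells differed from ES cells by -0.11 (95% interval -0.53 to 0.31) and from iHAC-free iPS cells by -0.30 (-0.64 to 0.05).

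**Figure D1:**
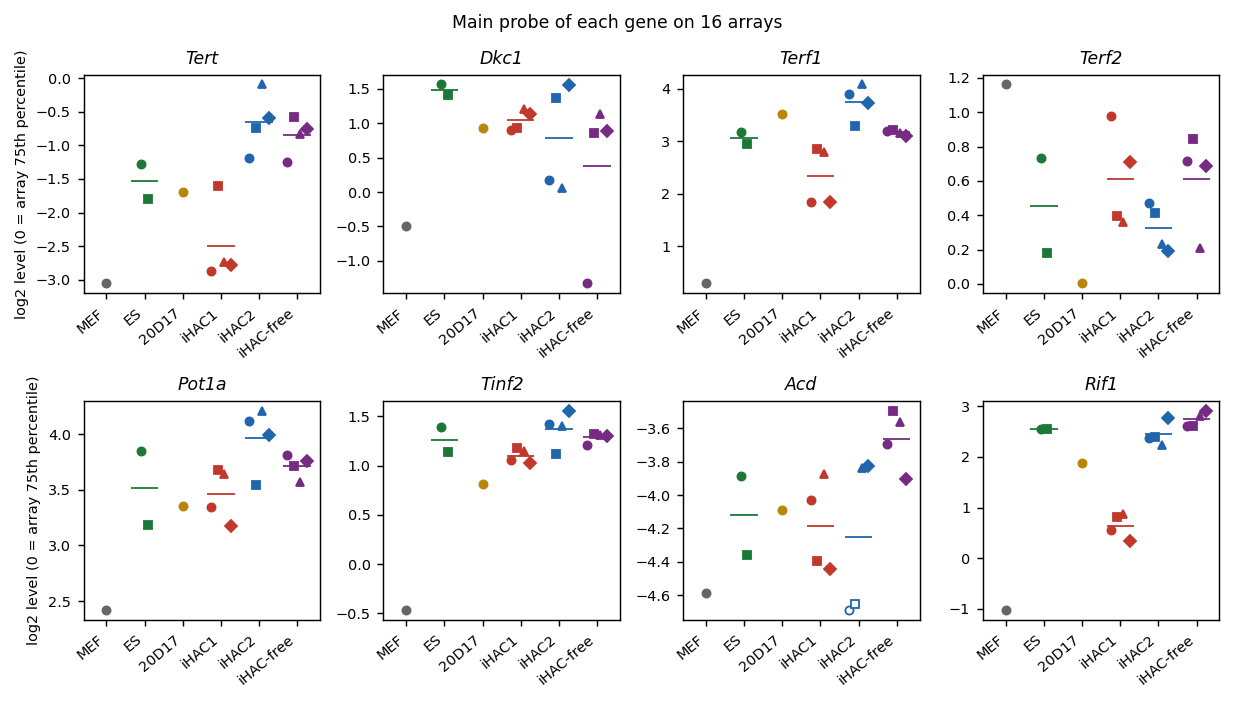
Each panel gives the log2 level (vertical axis, 0 is the 75th percentile of the array, scale differs between panels) of the main probe of 1 gene on the 16 arrays, with the groups on the horizontal axis. The main probe is the one with the highest mean level. Points are single clones or lines (circle, square, triangle and diamond in the order the text names them), horizontal lines are group means, and open points are not well above background. The 4 iHAC1-iPS clones lie between 0.34 and 0.87 for Rif1, below every other stem cell array, and 1-B stands at -1.60 for Tert while the other iHAC1-iPS clones lie near -2.8.

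Tert was lower in iHAC1-iPS cells than in iHAC2-iPS and iHAC-free iPS cells. Its probe A_51_P433778 (chr13:73786429-73786488) had a level of -2.86 in 1-A3, -1.60 in 1-B, -2.74 in 1-C3 and -2.77 in 1-D6. The MEF array stood at -3.05, B6ES at -1.28, TT2 at -1.80 and 20D17 at -1.69. So 3 of the 4 clones lay near MEFs, while 1-B lay among the ES lines. The level was -1.19 in 2-B1, -0.74 in 2-C6, -0.10 in 2-E and -0.59 in 2-N. It was -1.24 in F-B1, -0.59 in F-C5, -0.83 in F-E4 and -0.75 in F-N7. Every iHAC2-iPS and iHAC-free iPS array was therefore above both ES lines and above every iHAC1-iPS clone. Tert was 3.58-fold lower in iHAC1-iPS than in iHAC2-iPS cells (log2 difference -1.84, SE 0.30, adjusted p = 0.0010 in limma) and 3.12-fold lower than in iHAC-free iPS cells (-1.64, SE 0.30, adjusted p = 0.0016). The difference from ES cells, -0.96 (SE 0.37), had an adjusted p of 0.088 and was not called. Without 1-B it was -1.25 with an adjusted p of 0.014. The higher level of iHAC2-iPS cells against ES cells, 0.88 (95% interval 0.07 to 1.70), had an adjusted p of 0.13, and that of iHAC-free iPS cells, 0.68 (-0.13 to 1.50), one of 0.32. Between each iHAC2-iPS clone and the vector-free line derived from it Tert differed by 0.05 for 2-B1, -0.16 for 2-C6, 0.74 for 2-E and 0.16 for 2-N, clone minus line. The group difference of 0.20 (SE 0.30) was smaller than this spread.

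The promoter of Tert is shown because, of the telomerase subunits Tert and Dkc1, only Tert was called when all arrays were used. The 250 bases before its RefSeq start (GRCm38.p6, chr13:73626661-73626910, plus strand) follow in lower case, with matches to the GC box GGGCGG or its reverse complement CCGCCC in capitals.
Tert promoter: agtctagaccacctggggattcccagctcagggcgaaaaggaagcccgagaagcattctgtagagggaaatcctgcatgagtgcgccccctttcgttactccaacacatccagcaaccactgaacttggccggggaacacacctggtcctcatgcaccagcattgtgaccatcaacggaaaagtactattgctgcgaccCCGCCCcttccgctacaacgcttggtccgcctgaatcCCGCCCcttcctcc
The 2 matches begin 51 and 14 bases before the start. A GC box stood in 32.7% of 32851 promoter windows of this length, so it is a common element. The E-box CACGTG, the palindromic motif bound by Myc proteins, stood in 6.02% of the windows and not in this one. No factor's binding was measured in these data. Among the promoters of Dkc1, Terf2, Pot1a, Tinf2 and Acd, the one of Pot1a held 1 GC box and the others held neither motif. The promoters of Rif1 and Terf1 were not examined.

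Dkc1 was higher in all stem cells than in MEFs on the 5′ probe and showed no called difference between stem cell groups when all arrays were used. Probe A_51_P469633 stood at -0.81 in MEFs, 1.23 in B6ES, 1.25 in TT2 and 0.44 in 20D17. It was 0.55 in 1-A3, 0.61 in 1-B, 0.98 in 1-C3 and 0.70 in 1-D6. In 2-B1, 2-C6, 2-E and 2-N it was -0.28, 1.55, -0.06 and 0.78. The iHAC2-iPS clones thus spread over a wider range than the other groups, with 2-B1 and 2-E low and 2-C6 above the ES lines. It was 1.14 in F-B1, 0.41 in F-C5, 1.03 in F-E4 and 0.86 in F-N7, so the iHAC-free iPS lines lay within that range. The second probe, A_52_P406828 (chrX:72354473-72354532), gave 0.18, 1.36, 0.05 and 1.56 in the iHAC2-iPS clones in the same order, and so showed the same low pair. In F-B1 it stood at -1.33, against 0.85 in F-C5, 1.13 in F-E4 and 0.88 in F-N7, while the 5′ probe was highest in F-B1 among those lines. Relative to the ES lines the 5′ probe minus the other was 2.71 in F-B1 and between -0.53 and 0.42 on every other array. With all arrays the lowest adjusted p of Dkc1 in any comparison was 0.23, for iHAC2-iPS against ES cells on the 5′ probe (log2 difference -0.74). Without 2-C6 that difference was -1.09 with an adjusted p of 0.027 in limma. Leaving out that clone also raised the calls over all probes in this comparison, from 3627 to 6803 of 31415. The second Dkc1 probe was called in no setting. Dkc1 lies on the X chromosome, whose median over 633 probes relative to autosomes, with each probe set against the ES mean, was between -0.10 and 0.29 on all arrays, highest in 1-C3.

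**Figure D2:**
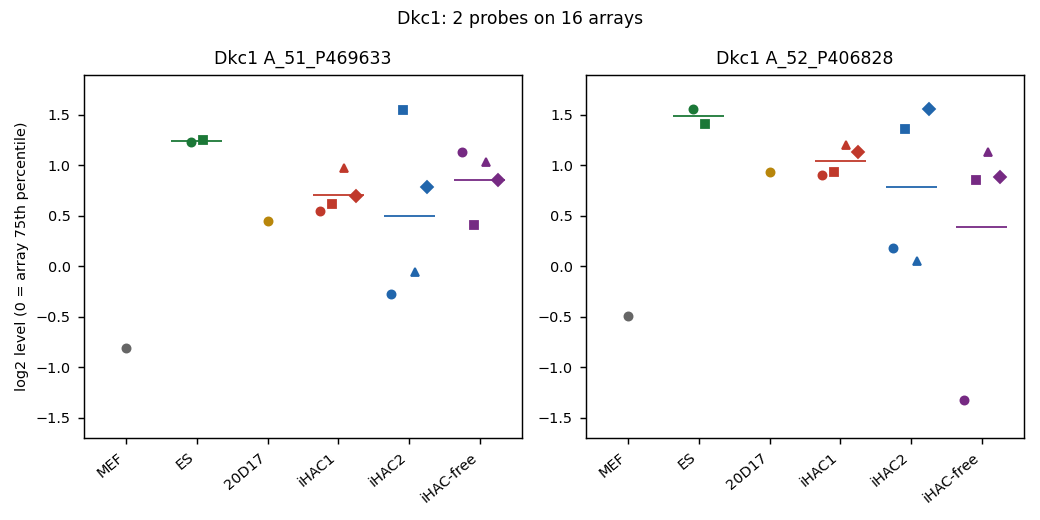
The log2 level (vertical axis, same scale in both panels) of the 5′ probe A_51_P469633 and of A_52_P406828 of Dkc1 is given for the 16 arrays, with groups on the horizontal axis, points for clones or lines and horizontal lines for group means. In both panels 2-B1 and 2-E lie below 2-C6 and 2-N, and F-B1 stands at 1.14 on the left and at -1.33 on the right.

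Terf1 was lower in iHAC1-iPS cells than in the iHAC2-derived cells and was highest in iHAC2-iPS clones. Probe A_51_P482464 (chr1:15833130-15833189) had a level of 1.84 in 1-A3, 2.86 in 1-B, 2.80 in 1-C3 and 1.85 in 1-D6. It was 3.18 in B6ES, 2.95 in TT2, 3.53 in 20D17 and 0.29 in MEFs. So 1-A3 and 1-D6 were low and 1-B and 1-C3 lay just under the ES lines. It was 3.90 in 2-B1, 3.30 in 2-C6, 4.09 in 2-E and 3.73 in 2-N. It was 3.20 in F-B1, 3.22 in F-C5, 3.17 in F-E4 and 3.11 in F-N7. Every iHAC2-iPS clone was above both ES lines and above every iHAC-free iPS line, and the 4 iHAC-free iPS lines lay within about 0.1 of each other. Terf1 was 2.66-fold lower in iHAC1-iPS than in iHAC2-iPS cells (log2 difference -1.41, SE 0.25, adjusted p = 0.0015 in limma) and 1.78-fold lower than in iHAC-free iPS cells (-0.84, SE 0.25, adjusted p = 0.021). The second of these was lost without 1-A3 (adjusted p = 0.064) or without 1-D6 (adjusted p = 0.067). The difference of iHAC1-iPS from ES cells was -0.72 (adjusted p = 0.12). The difference of iHAC2-iPS from iHAC-free iPS cells was 0.58 (95% interval 0.03 to 1.13, adjusted p = 0.25), with 0.66 within one slide and 0.50 within the other, and was not called. It was positive in all 4 pairs of clone and derived line, from 0.08 for 2-C6 to 0.92 for 2-E.

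The 4 Terf2 probes did not move together. The 5′ pair was low in MEFs, lowest of all arrays on A_52_P391210 and above only 2-B1 on A_52_P580017, and the 3′ pair was highest in MEFs. There A_52_P580017 stood at -1.22 and A_52_P391210 at -1.73, against ES means of 0.05 and -0.30, while A_52_P427544 stood at -0.07 and A_51_P458086 at 1.16, against ES means of -0.63 and 0.46. Averaged over each pair and set against the ES lines, the 5′ pair minus the 3′ pair was -1.99 in MEFs and 0.05 in 20D17. It was -1.35 in 1-A3, -0.41 in 1-B, -0.31 in 1-C3 and -0.9995 in 1-D6. In 2-B1, 2-C6, 2-E and 2-N it was -1.24, -0.56, -0.45 and -0.18, and it was -0.73 in F-B1, -1.12 in F-C5, -0.21 in F-E4 and -0.76 in F-N7. All 12 clones and lines made with the vectors thus stood below both ES lines, and the 3 groups overlapped each other. Against the ES lines the exact two-sided permutation p was 0.13 for iHAC1-iPS, 0.20 for iHAC2-iPS and 0.067 for iHAC-free iPS cells, where 4 arrays against 2 allow no p under 0.067. This contrast was chosen after its values were seen. Labelling of this kind starts from the 3′ end of the RNA, and its part in the Terf2 values was not tested. Over 1056 other genes with a 5′ and a 3′ probe 5000 to 20000 bases apart, the median of the same measure lay between -0.21 and 0.17 on all arrays, and at -0.12 in MEFs. A median does not show how far single genes spread. The probe annotation gives the 3′ pair only the RefSeq transcript NM_009353, and the 5′ pair also NM_001083118. The part of this in the split was not tested either.

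**Figure D3:**
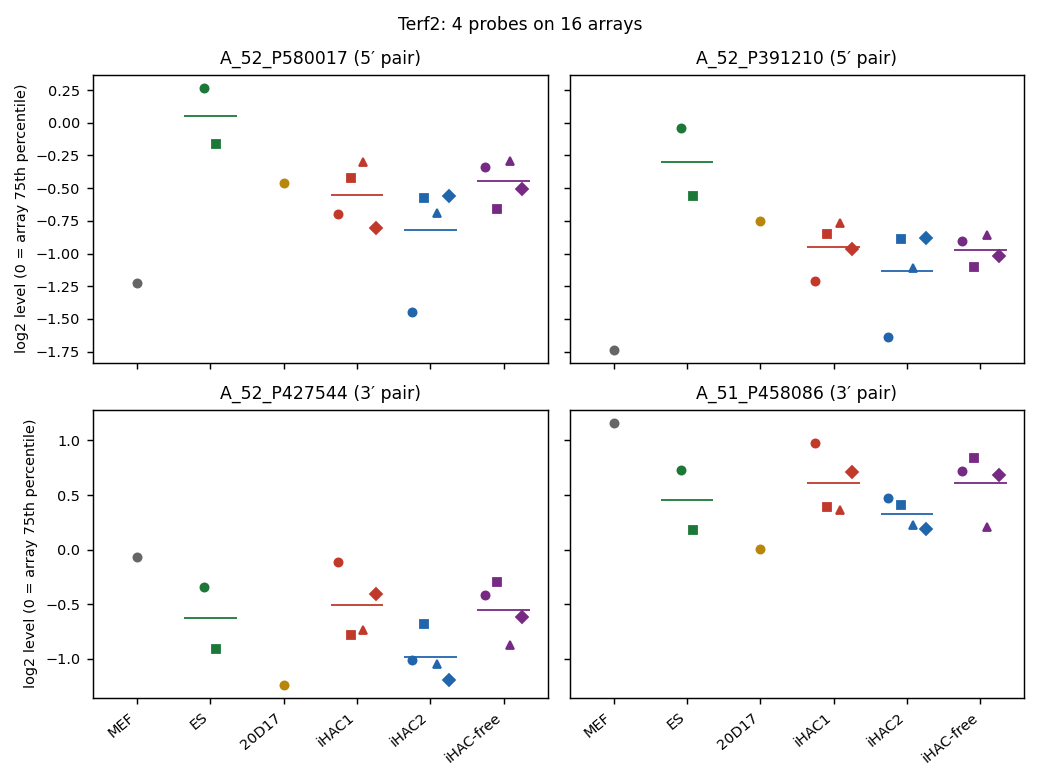
The log2 level (vertical axis, shared within a row) of the 4 Terf2 probes on the 16 arrays is given by group, with points for clones or lines and horizontal lines for group means. The upper row holds the 5′ pair, lowest in MEFs except that 2-B1 lies lower on A_52_P580017, and the lower row holds the 3′ pair, highest in MEFs.

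The 5′ pair was lower in iHAC2-iPS cells than in ES cells. A_52_P391210 was -0.04 in B6ES and -0.56 in TT2, and -1.64 in 2-B1, -0.89 in 2-C6, -1.11 in 2-E and -0.88 in 2-N. A_52_P580017 was 0.27 in B6ES and -0.16 in TT2, and -1.45 in 2-B1, -0.57 in 2-C6, -0.69 in 2-E and -0.56 in 2-N. The groups did not overlap on either probe, and 2-B1 was the lowest on both. The differences were -0.83 (SE 0.23, adjusted p = 0.039 in limma) and -0.87 (SE 0.26, adjusted p = 0.049). On the 3′ pair they were -0.13 (adjusted p = 0.73) for A_51_P458086 and -0.36 (adjusted p = 0.34) for A_52_P427544, and were not called. Without B6ES the differences were -0.57 (adjusted p = 0.29) and -0.65 (adjusted p = 0.30), and without TT2 they were -1.09 (adjusted p = 0.080) and -1.09 (adjusted p = 0.11). Both calls were lost in each case, where 1 ES array remained. They were also lost without 2-B1, at -0.66 for each (adjusted p = 0.058 and 0.065), and without 2-E, at -0.84 and -0.91 (adjusted p = 0.069 and 0.073). On chromosome 8, where Terf2 lies, the median over 1044 probes relative to autosomes, with each probe set against the mean of the ES lines, was 0.14 in B6ES and -0.14 in TT2, which mirror each other by this centring. It was between -0.22 and -0.06 on every other array. Its part in the Terf2 difference was not tested. The 5′ pair was not called in any other comparison under the main settings. With only probes well above background on all arrays, A_52_P391210 was called in iHAC1-iPS against ES cells at -0.65 (adjusted p = 0.042, against 0.065 under the main settings). The iHAC1-iPS and iHAC-free iPS cells also lay below both ES lines on each of these probes.

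Pot1a and Tinf2 were higher in stem cells than in MEFs and differed little between stem cell groups on their bright probes. The Pot1a probe A_51_P181152 (chr6:25693978-25694037) was 2.42 in MEFs, 3.85 in B6ES, 3.18 in TT2 and 3.35 in 20D17. It ranged from 3.18 to 3.68 in iHAC1-iPS, from 3.55 to 4.21 in iHAC2-iPS and from 3.57 to 3.81 in iHAC-free iPS cells. These ranges overlap between neighbouring groups, and the ES lines cover much of them. The largest difference was that of iHAC1-iPS from iHAC2-iPS cells, -0.51 (95% interval -0.92 to -0.09), with an adjusted p of 0.056. At about the same size it was called in limma with no filter for dim probes (adjusted p = 0.048) and with the strict filter (0.039). It was also called under normexp correction (0.042) and with the slide as a random block (0.039). No slide held both groups, so that block could not remove a slide or session difference. Leaving out 2-C6 gave -0.65 with an adjusted p of 0.015. The second Pot1a probe, A_52_P128734, is assigned to no RefSeq transcript and was well above background on 1 array only, 2-N, at -4.22. It passed the background filter only through that array. In limma iHAC1-iPS and iHAC2-iPS cells differed on it with an adjusted p of 0.042, but it was measured on 1 of the 4 iHAC2-iPS arrays and on no iHAC1-iPS array, so no size is given. The groups overlapped on it, and without 2-N the adjusted p was 0.11.

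The Tinf2 probe A_52_P639551 (chr14:56298188-56298351) was -0.46 in MEFs, 1.39 in B6ES, 1.13 in TT2 and 0.81 in 20D17. It ranged from 1.02 to 1.17 in iHAC1-iPS, from 1.11 to 1.56 in iHAC2-iPS and from 1.21 to 1.32 in iHAC-free iPS cells, a narrow band of which the ES lines span the middle. No comparison was called with all arrays, and the largest difference was -0.27 (SE 0.12, adjusted p = 0.093), for iHAC1-iPS against iHAC2-iPS cells. Without 2-C6 it was -0.36 and was called (adjusted p = 0.022 in limma). The second Tinf2 probe, A_51_P506695, is assigned in the files to cDNAs and to no RefSeq transcript. It was well above background on both ES arrays, in MEFs, in 20D17 and on 3 of 4 iHAC1-iPS arrays, and on no iHAC2-iPS or iHAC-free iPS array. Its level was -4.57 in 1-A3, -5.47 in 1-B, -4.58 in 1-C3 and -4.39 in 1-D6, against -5.80 in F-B1, -7.17 in F-C5, -5.52 in F-E4 and -6.14 in F-N7. Under the main settings iHAC1-iPS cells were 1.46-fold or more above iHAC-free iPS cells on it (adjusted p = 0.017 in limma). That bound sets each iHAC-free iPS array no lower than its lowest level well above background, and includes 1-B although dim. Over the alternatives that kept all arrays the log2 difference, without this bound, ran from 0.49 to 1.60. The bright Tinf2 probe differed by -0.19 (adjusted p = 0.25).

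Acd gave weak signals on its only probe, which is assigned to no RefSeq transcript. Whether this probe reads the RefSeq transcript of Acd was not tested. The probe, A_52_P540399 (chr8:108223661-108223720), was well above background on 14 arrays and not on 2-B1 and 2-C6. The level was -4.59 in MEFs, -3.88 in B6ES, -4.36 in TT2 and -4.09 in 20D17. It was -4.03 in 1-A3, -4.40 in 1-B, -3.87 in 1-C3 and -4.44 in 1-D6. In 2-B1, 2-C6, 2-E and 2-N it was -4.69, -4.66, -3.84 and -3.83, and it was -3.69 in F-B1, -3.49 in F-C5, -3.56 in F-E4 and -3.91 in F-N7. The iHAC-free iPS lines were the highest group, with overlap. Their difference from iHAC2-iPS cells, with iHAC2-iPS lower by 0.59 (SE 0.24), had an adjusted p of 0.22, and that of iHAC1-iPS cells, lower by 0.52, one of 0.10. The latter was 0.03 in size under normexp background correction (adjusted p = 0.87), and it was called when the fit held the compared groups alone (adjusted p = 0.036).

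**Figure D4:**
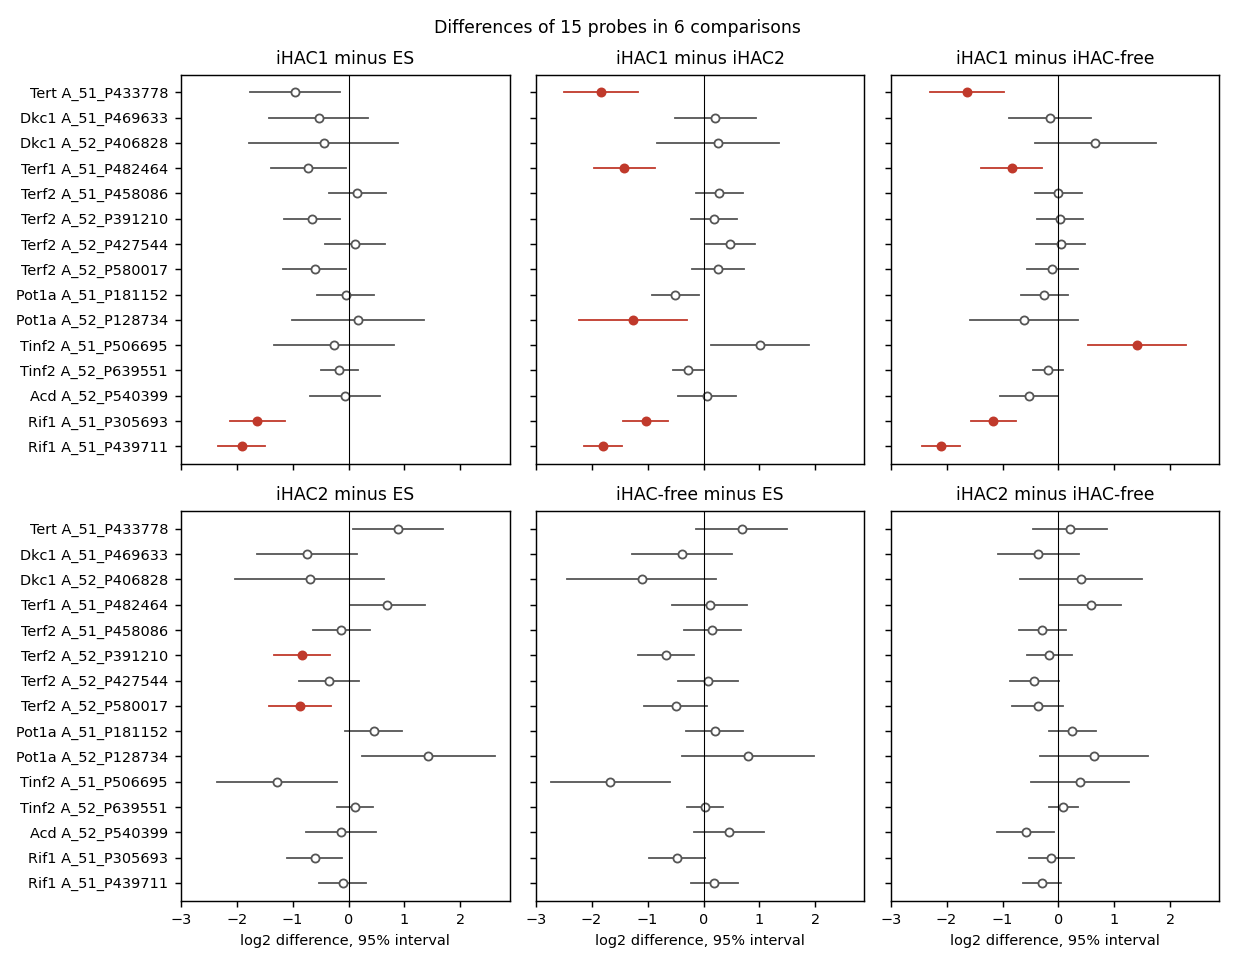
For each of the 15 probes the log2 difference between 2 groups (horizontal axis) is given with its 95% interval from the limma fit, in 6 comparisons. Filled red points have an adjusted p under 0.05, and open points do not. Both Rif1 probes lie left of 0 and filled in the 3 upper panels, between -2.10 and -1.03, and no point is filled in the panels of iHAC-free iPS against ES and of iHAC2-iPS against iHAC-free iPS.

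By group, the comparison of iHAC1-iPS with ES cells called 2 of 15 probes, both of Rif1 and both lower, where 21.3% of all tested probes were called and 11% were called lower. The groups did not overlap for 7 of 15, where they did not overlap for 47.9% of all probes. Against iHAC2-iPS cells 5 of 15 were called, all lower in iHAC1-iPS cells (Tert, Terf1, both Rif1 probes and the dim Pot1a probe), where 37.5% of all probes were called and 20.2% called lower. The dim Pot1a probe entered the test only through an iHAC2-iPS array, the group in which it was higher, and without it 4 were called. There the groups did not overlap for 4 of 15, beside 32.7% of all probes. Against iHAC-free iPS cells 5 of 15 were called, where 37% of all probes were called. Of these, 4 were lower (Tert, Terf1 and both Rif1 probes), beside 18.2% of all probes, and 1 was higher (the dim Tinf2 probe), beside 18.8%. The groups did not overlap for 6 of 15, beside 44% of all probes. In each of these comparisons the share of member probes called in either direction was no higher than that of all probes.

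The iHAC2-iPS and ES comparison called 2 of 15 (the Terf2 5′ pair, both lower), where 11.5% of all probes were called and 5.67% called lower, and its groups did not overlap for 7 of 15, beside 37.3%. With iHAC-free iPS against ES cells limma called 0 of 15, where 0.481% of all probes were called, and 2 had an unadjusted p under 0.05. The groups did not overlap for 9 of 15, beside 44.1% of all probes. Between iHAC2-iPS cells and the lines freed of the vector limma called 0 of 15, where 1.11% of all probes were called, and 2 had an unadjusted p under 0.05. The groups did not overlap for 1 of 15 (Terf1), beside 11.5% of all probes. These comparisons share groups, so they are not independent of each other. The median difference of the 15 probes was -0.44 for iHAC1-iPS against ES cells and 0.08 for iHAC-free iPS against ES cells, where the median over all probes was 0.02 in each.

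MEFs were the lowest of the 16 arrays for 8 of the 12 probes that were well above background on every array. Over all probes of that kind the share lowest in MEFs was 30.2%. These 8 probes covered Tert, Terf1, Terf2 (A_52_P391210), Pot1a, Tinf2, Dkc1 (A_51_P469633) and both of Rif1. From the single MEF array the ES mean of the Rif1 5′ probe was 11.9-fold higher, that of Terf1 6.83-fold, that of the Dkc1 5′ probe 4.16-fold and that of Tert 2.86-fold. With 1 MEF array these sizes have no test. Line 20D17 lay below both ES lines for both Rif1 probes, at 1.88 and 2.09, and above both for Terf1, at 3.53.

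Other genes of telomere biology were read from fixed lists, with the brightest probe of each gene. Their counts stand beside the shares of all probes called in the same comparison, 21.3% against ES (11% lower), 37.5% against iHAC2-iPS (20.2% lower) and 37% against iHAC-free iPS cells (18.2% lower). Of 13 genes of telomerase assembly, 3 were lower in iHAC1-iPS cells than in the ES lines, where 11% of all probes were called lower, and none was higher. They were Naf1, an assembly factor of the H/ACA particle, by -0.94 (adjusted p = 0.017), Smg5 by -0.58 (adjusted p = 0.046) and Wrap53, which brings telomerase to Cajal bodies, by -0.53 (adjusted p = 0.039). The telomerase RNA Terc was -4.32 in iHAC1-iPS and -3.70 in ES cells and was not called in any comparison. Against iHAC2-iPS cells 4 were lower, led by Tep1, a telomerase-associated protein, at -0.95 (adjusted p = 0.029) and Naf1 at -0.79 (adjusted p = 0.0086), and 1, Gar1, was higher by 1.01 (adjusted p = 0.0098). Gar1, a partner of dyskerin, was 1.88 in iHAC2-iPS and 3.24 in ES cells, a difference of -1.36 (adjusted p = 0.023) and the only call of this list in that comparison. Against iHAC-free iPS cells Tep1 was lower by -0.92 (adjusted p = 0.033) and Smg6 by -0.36 (adjusted p = 0.029), and Nop10, another partner of dyskerin, was higher by 0.49 (adjusted p = 0.0091).

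Of the other 5 genes of shelterin and the CST complex, which fills in the C-rich strand, none was called between iHAC1-iPS and ES cells. Ctc1, a CST subunit under an older clone name in the files, was lower in iHAC1-iPS than in iHAC2-iPS cells by -1.09 (adjusted p = 0.0021) and than in iHAC-free iPS cells by -1.03 (adjusted p = 0.0024). Its level was 3.62 in iHAC2-iPS cells and 2.61 in the ES lines (adjusted p = 0.029). Pot1b, which like Pot1a binds the overhang, was lower in iHAC1-iPS cells by -0.85 and -0.81 in the same 2 comparisons (adjusted p = 0.012 and 0.015). Terf2ip, the Rap1 protein that sits on Terf2, was lower in iHAC2-iPS cells than in the ES lines by -0.68 (adjusted p = 0.045).

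Of 16 genes of telomere replication and repair, 1 was lower in iHAC1-iPS cells than in the ES lines, Rad50 of the Mre11 complex, by -1.01 (adjusted p = 0.024). Against iHAC2-iPS cells 5 were lower and 1 higher, led by Rad50 at -1.14 (adjusted p = 0.0030) and Mre11a at -0.78 (adjusted p = 0.0038), with Fen1 higher by 0.69 (adjusted p = 0.048). Against iHAC-free iPS cells 5 were lower, among them Rad50 at -1.29 (adjusted p = 0.0012) and the helicases Wrn at -1.02 (adjusted p = 0.016) and Blm at -0.61 (adjusted p = 0.027). Rad50 was thus called in all 3 comparisons of iHAC1-iPS cells, like Rif1. The list had no call in the other 3 comparisons.

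Of 9 genes of telomere chromatin, 4 were lower and 1 higher in iHAC1-iPS cells than in the ES lines, where 21.3% of all probes were called and 11% called lower. Cbx1, a heterochromatin protein, differed by -1.24 (adjusted p = 0.00059), Atrx, the remodeller that loads H3.3 at telomeres, by -1.07 (adjusted p = 0.020) and the histone methyltransferase Suv39h1 by 1.37 (adjusted p = 0.00021). Cbx1 and Suv39h1 were called in the same directions against iHAC2-iPS cells, at -0.61 (adjusted p = 0.0054) and 0.95 (adjusted p = 0.00033), and against iHAC-free iPS cells, at -1.18 (adjusted p = 0.00010) and 1.39 (adjusted p = 2.42e-05). Against iHAC2-iPS cells these were the only calls, and against iHAC-free iPS cells 3 were lower and 1 higher. In the iHAC2-iPS and ES comparison Suv420h2 was higher by 0.83 (adjusted p = 0.045) and Cbx1 lower by -0.63 (adjusted p = 0.035). Atrx was lower by -1.09 against iHAC-free iPS cells (adjusted p = 0.0036). iHAC-free iPS cells had no call against ES or iHAC2-iPS cells in any of these 4 lists, comparisons in which 0.481% and 1.11% of all probes were called. Of the Zscan4 group, genes of a transient ES cell state with telomere lengthening, 3 of 7 had a probe. Zscan4c was well above background on 4 arrays, with the highest level, 0.24, in 20D17 and a mean of -3.42 in the ES lines. It was called lower than ES in iHAC1-iPS cells (mean -5.95) and iHAC2-iPS cells (mean -6.42), whose levels were near background. Tcstv1 was called lower in iHAC1-iPS cells, also near background at -5.03, against -3.59 in the ES lines.

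**Figure D5:**
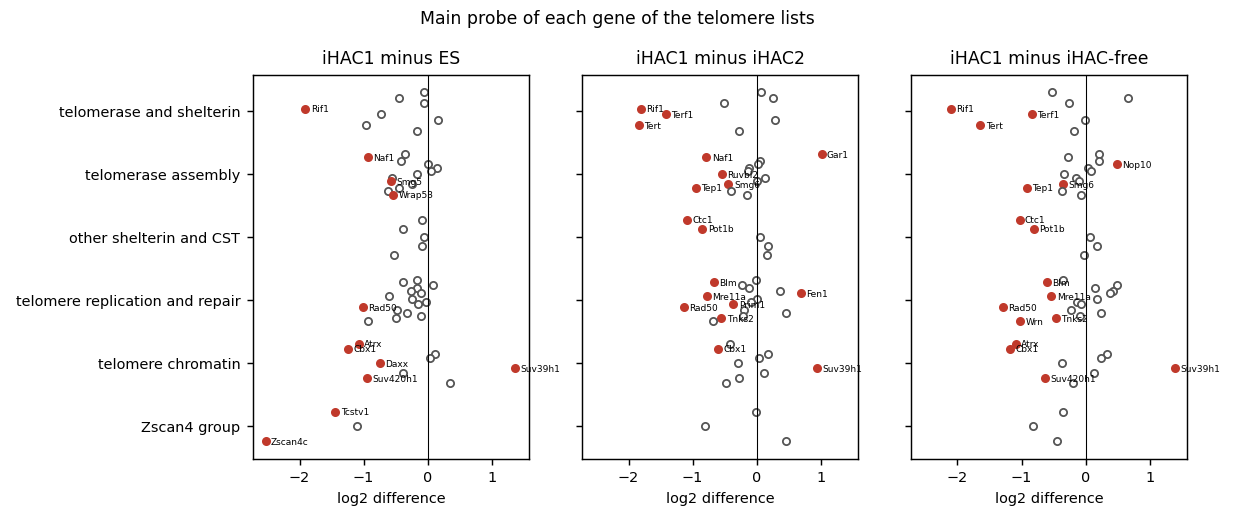
For each list (vertical axis) the log2 difference (horizontal axis) of the brightest probe of every gene is given for iHAC1-iPS cells against ES, iHAC2-iPS and iHAC-free iPS cells. Filled and named points have an adjusted p under 0.05 in limma, and the vertical position within a list has no meaning. Rif1 at -1.91, -1.80 and -2.10 is filled in all 3 panels, as are Cbx1 and Suv39h1, the latter to the right of 0.

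Other gene groups were read in the same comparisons. Of all tested probes, 21.3% were called in iHAC1-iPS against ES cells, 11% of them all as lower. The shares were 37.5% against iHAC2-iPS cells (20.2% lower) and 37% against iHAC-free iPS cells (18.2% lower). In iHAC2-iPS against ES cells 11.5% were called. Of 9 pluripotency markers 8 were lower and 1 higher than in ES cells, with a median difference of -7.77. The higher one was Pou5f1 (Oct4), at 6.55 in iHAC1-iPS and 3.78 in ES cells. The vectors carry Oct4 and Sox2, and whether the probes of these markers read the vector copies was not tested. Of 20 fibroblast markers 10 were higher than in ES cells and none lower, with a median of 1.48. The mean level of that list was 2.41 to 3.40 in iHAC1-iPS, 0.76 to 2.10 in ES and 3.80 in MEF arrays. The feeder layers are fibroblasts too, and their part in this and the following lists was not tested. Of 15 proliferation genes 3 were lower than in ES cells and none higher, with a median of -0.30. That share called was no higher than the 21.3% of all probes. Against iHAC2-iPS cells 7 were lower and 1 higher, beside 37.5% of all probes called. Of 7 tested extraembryonic markers 3 were lower than in ES cells. Of 5 sex-linked genes 1, Xist, was higher than in ES cells. Against iHAC2-iPS cells all 5 were called, with Xist higher and the 4 Y-linked genes lower, and the Y-linked Ddx3y stood at -2.56 in iHAC1-iPS, 1.12 in iHAC2-iPS, -0.41 in iHAC-free iPS and -2.52 in ES cells. Against iHAC-free iPS cells 1 was higher and 3 were lower, and in iHAC2-iPS against ES cells 4 were higher with a median of 4.01. The sex-linked genes thus differed in both comparisons in which Rif1, Tert and Terf1 were called lower in iHAC1-iPS cells. Rif1 was also called lower against ES cells, where Xist was the only sex-linked gene called. The part of these groups in the telomere gene results was not tested, and in these bulk samples fewer cells of a type and less RNA per cell cannot be told apart.

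The genes whose pattern over the 16 arrays was most like that of a member were found among 19579 probes that had a current gene symbol and were well above background on at least 8 arrays. For Rif1 they were Gpa33 (Pearson r 0.98, Spearman rho 0.92), Chchd10 (r 0.98, rho 0.94) and Rasgrp4 (r 0.98, rho 0.82). For Tert they were C77080 (r 0.97, rho 0.94), Stxbp2 (r 0.95, rho 0.94) and Ttf1 (r 0.95, rho 0.91). For Terf1 they were Cenpf (r 0.97, rho 0.84), Ube2t (r 0.96, rho 0.85) and Rhebl1 (r 0.96, rho 0.81). The arrays fall into groups that differ over many genes, so high values are common. For Tinf2 the first was Arhgap19 (r 0.99, rho 0.91), which fell to 0.92 without MEFs, and for Pot1a it was Aldh9a1 (r 0.95, rho 0.90). For Terf2 and Acd the first were Wdfy3 (r 0.83, rho 0.71) and Sesn1 (r 0.88, rho 0.87). For Dkc1, by the probe A_52_P406828, they were Smn1 (r 0.90, rho 0.94), Tuba4a (r 0.84, rho 0.72) and Rps6kb1 (r 0.75, rho 0.58). All 3 were lowest in F-B1 among the iHAC-free iPS lines, and Rps6kb1 stood at -6.84 there against -2.43 to -1.86 in the others. These genes were chosen for their likeness to a probe with a low F-B1 value, so their own low values there are a description and support nothing.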

How the data were processed

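Gene expression was measured in 16 samples, each on 1 Agilent whole mouse genome array with 1 colour. The deposited scanner files hold the intensity of each spot as the authors' Feature Extraction runs gave it, background-subtracted and not scaled between arrays. The deposited value table holds log2 values that the authors scaled by the 75th percentile and centred for each probe. It followed the scanner values with slopes of 1, and it was used as an alternative.

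Here control and outlier spots were left out, spots of a probe were averaged, and log2 of the processed intensity minus the 75th percentile of the array was taken. Probes well above background on at least 1 array were tested, 31415 in all, of which 28 lacked a value on some array (no member among them). The 6 groups of the 16 arrays entered 1 limma fit, with lmFit and then eBayes. A probe was called at an adjusted p (Benjamini-Hochberg over all tested probes) under 0.05. MEFs and 20D17 entered the fit as groups of 1 and were not tested. The steps were checked on simulated data.

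The members and gene lists were chosen with earlier results of these data known. Every member probe is named. From each list up to 3 called genes with the largest difference per comparison were to be named. Symbols are those of the files, and 12 of the 15 probes matched the symbol in a RefSeq table (GRCm38.p6) by accession. Probe positions are on mm9, and promoters come from RefSeq on GRCm38.p6. Each iHAC-free iPS line comes from 1 iHAC2-iPS clone according to the study, which pairs these samples by cell line. The deviations of the pairs from their group means had correlations of -0.219 to 0.08. The alternatives were normexp correction (offset 50), quantile normalization, the deposited table, no filter for dim probes or a strict one, a block for the slide or for the clone of origin, only the compared groups, 1 probe per gene, a 2-fold minimum and leaving out each array. The slide was a fixed term where slides held both groups, and a random block otherwise. R 4.3.3, limma 3.58.1 and Python were used. The number of arrays, 2 to 4 per tested group, limits the precision.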

Additional observations from a re-analysis of the deposited data

Results flagged for a closer look

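In 45 sets of 4 clones or lines (15 probes in 3 groups), 1 array stood apart from the other 3 in 4 sets, by a gap divided by the range above Dixon's limit, where chance flags about 1 in 20. For Tert, 1-B was at -1.60 and the other iHAC1-iPS clones between -2.86 and -2.74, a ratio of 0.903. For the Dkc1 probe A_52_P406828, F-B1 was at -1.33 and the other iHAC-free iPS lines between 0.85 and 1.13, a ratio of 0.888. For the Terf2 probe A_52_P580017, 2-B1 was at -1.45 and the other iHAC2-iPS clones between -0.69 and -0.56, a ratio of 0.859. For the Tinf2 probe A_52_P639551, F-B1 was at 1.21 and the other iHAC-free iPS lines between 1.30 and 1.32, a ratio of 0.852, in a group whose SD was 0.05.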

How the results depend on the processing

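Of the differences of 15 probes in 6 comparisons, 24 were called in at least 1 setting, and none of these changed direction under any alternative. The other 66 were called in none. The called Rif1 differences and those of Tert and Terf1 between iHAC1-iPS and iHAC2-iPS cells kept their calls in every setting that tested them. With 1 probe per gene the counts of calls were 1 for iHAC1-iPS against ES, 0 for iHAC2-iPS against ES, 3 for iHAC1-iPS against iHAC2-iPS and 3 for iHAC1-iPS against iHAC-free iPS cells, since fewer probes entered the fit. For iHAC2-iPS against ES cells the count of 2 was 0 with only the compared groups, 0 with a 2-fold minimum, 1 under quantile normalization, and 0 to 3 when 1 array was left out, being 0 without B6ES, TT2, 2-B1 or 2-E. With the slide as a block the count was 1 for iHAC-free iPS against ES cells (the dim Tinf2 probe). It was 8 for iHAC1-iPS against iHAC2-iPS cells, which had 4 to 9 when 1 array was left out (9 without 2-C6). In neither comparison did a slide hold both groups, so the slide entered as a random block (consensus correlation -0.119). Such a block cannot take a slide or session difference out of the comparison. The causes of the changes in these counts were not tested. With the clone of origin as a replicate block, iHAC2-iPS against iHAC-free iPS cells had 0 calls, as without it. The dim Pot1a call was lost under normexp correction at -0.23 (adjusted p = 0.22), under quantile normalization (0.060), with only the compared groups (0.10), and without 1-A3 (0.064), 1-D6 (0.11), 2-E (0.091) or 2-N (0.11). Quantile normalization moved no probe's range over the arrays by more than its SD within groups.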
